A study of Mus musculus with 8 samples.

Results

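The transcripts described here are those of the alpha-defensins, called cryptdins in the mouse, and of 14 further genes grouped with Paneth cell products. The 14 are not all granule products: Fgfr4 is a receptor, Nod2 a bacterial sensor, Nupr1 a chromatin protein and Copz2 a coatomer subunit. All members were chosen by gene symbol, and earlier results of these data were known when the choice was made. The rule took every probe set of an Affymetrix array whose symbol began with Defa and a number or a hyphen, and those of Lyz1, Mmp7, Ang4, Itln1, Mptx1, Mptx2, Nupr1, Copz2, Pla2g2a, Habp2, Tspan8, Guca2b, Fgfr4 and Nod2. The rule found 36 genes with 1 probe set each, 22 alpha-defensins and 14 others, of 19505 named genes on the array. Of 28 numbered protein-coding Defa genes in RefSeq, 6 had no named probe set and were not analysed here.

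The RNA came from about 4 cm of ileum of KKAy males, whose yellow agouti allele makes them obese and diabetic. The labels give all 8 mice an age of 14 weeks and a weight of 30 g, and the stage of the study these refer to was not settled here. All were kept on a diet in which fat supplied 45% of the energy. After 4 weeks on the diet a daily gavage of voglibose (1 mg/kg) or of water was given for 8 weeks, with 4 mice and 1 array each per group. Voglibose inhibits the alpha-glucosidases of the brush border, and the comparison asks which ileal transcripts differ after treatment.

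Paneth cells sit at the base of the small intestinal crypts beside the stem cells and release granules of antimicrobial proteins into the crypt lumen. In the mouse, alpha-defensins are made as inactive precursors that the metalloprotease Mmp7 cuts to active peptides. The genes lie in a cluster of recently copied neighbours, so their transcripts are close to identical and a probe for 1 gene can bind the RNA of another. Paneth cell differentiation depends on Wnt signalling, whose nuclear effectors are the TCF factors, and the set of defensins made changes along the length of the small intestine.

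All values are log2 signals as deposited, so a difference of 1 is a doubling. Array medians lay between 5.89 and 5.94. Signals of different probe sets are not compared as amounts. Of the 36 members, 30 had a mean signal above the upper quartile of all probe sets and 15 a mean above 16. Fgfr4 and Nod2, by contrast, had signals below the array medians in all 8 mice. In a piece of whole ileum, fewer Paneth cells and less RNA per Paneth cell cannot be told apart.

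Several samples stood apart before any result is read. The ileal bile acid-binding protein Fabp6, which marks the distal small intestine, had signals of 8.51, 17.50, 14.11 and 4.01 for water mice 1 to 4, and 8.14, 3.54, 10.78 and 11.68 in voglibose mice 1 to 4. The ileal bile acid transporter Slc10a2 gave 8.96, 13.52, 10.07 and 5.69 in the water mice and 8.13, 6.12, 10.42 and 10.54 in the voglibose mice. The distal gut hormone gene Pyy gave 10.97, 11.73, 11.31 and 8.44 with water and 11.13, 8.50, 12.16 and 11.51 with voglibose. Water mouse 4 and voglibose mouse 2 were thus the lowest of their groups in all 3 markers, and their Fabp6 lay below the lower quartile of their own arrays (4.13 and 4.18). Voglibose mouse 2 also carried pancreatic acinar RNA, with a mean of 9.55 over 9 acinar genes against 4.45 to 4.66 in the other 7 mice. Water mouse 1 and voglibose mouse 3 had the highest levels of the B cell and Peyer patch list, 7.52 and 7.46 against 5.52 to 6.45.

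The alpha-defensin probe sets did not give 22 separate measurements. Defa3 and Defa17 had the same deposited value in all 8 mice, as did Defa2 and Defa33, and Defa20 and Defa32. Defa31 and Defa43 each shared all 8 values with 1 probe set that is unnamed here. In all, 8 of 22 alpha-defensin probe sets (36.4%) matched another probe set, against 254 probe sets (1.14%) of the whole array and 0 of the 14 other members. This leaves 19 distinct measurements among the alpha-defensins, and a value named for 1 gene of a pair belongs to both. How far the remaining 19 share probes or bind each other's RNA was not tested.

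All 22 alpha-defensin genes lie on chromosome 8 of the reference. The table of RefSeq promoters (GRCm38.p6, the C57BL/6J genome, each 250 bases before to 50 after a gene's start) held 12 of them and 13 of the other 14 members. KKAy sequence was not examined. The sequences below set Defa43, the window that lacks the letters CTTTGAT, beside 3 windows that hold them, those of Defa20, Defa37 and Defa31. Each runs 5′ to 3′ on the gene's own strand from the first base of the window to 12 bases past the letters TATAAA. Capitals mark TATAAA, the letters of a TATA box, and CTTTGAT or its reverse complement ATCAAAG, letters that TCF factors are known to bind. Defa43 lies at chr8:21594522-21594715 on the minus strand, Defa20 at chr8:21509008-21509244, Defa37 at chr8:21565136-21565357 and Defa31 at chr8:21191323-21191557, all 3 on the plus strand.
Defa43: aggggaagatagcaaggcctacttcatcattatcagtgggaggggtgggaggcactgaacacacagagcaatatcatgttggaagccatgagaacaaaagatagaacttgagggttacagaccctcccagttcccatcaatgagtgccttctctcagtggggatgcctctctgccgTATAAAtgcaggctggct
Defa20: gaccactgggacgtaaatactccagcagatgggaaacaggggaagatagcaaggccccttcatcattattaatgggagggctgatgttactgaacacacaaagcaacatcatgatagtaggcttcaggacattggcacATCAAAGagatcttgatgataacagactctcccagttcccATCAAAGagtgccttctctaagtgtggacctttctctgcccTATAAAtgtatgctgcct
Defa37: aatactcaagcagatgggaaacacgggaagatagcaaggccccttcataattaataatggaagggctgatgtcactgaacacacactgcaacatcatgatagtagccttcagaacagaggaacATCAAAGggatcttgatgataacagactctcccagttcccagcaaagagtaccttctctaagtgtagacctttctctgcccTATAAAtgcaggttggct
Defa31: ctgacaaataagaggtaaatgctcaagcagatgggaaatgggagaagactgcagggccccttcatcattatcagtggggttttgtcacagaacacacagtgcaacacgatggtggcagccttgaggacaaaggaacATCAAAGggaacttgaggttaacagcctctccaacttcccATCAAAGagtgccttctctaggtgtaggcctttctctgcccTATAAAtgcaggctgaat

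Both strands of the whole 300-base windows were searched. CTTTGAT stood in 11 of the 12 alpha-defensin windows and in 3.73% of all 32851 windows of the table. Defa43 was the window without it, and it alone lay on the minus strand. Within the stretches printed above, Defa20 and Defa31 held 2 matches each and Defa37 held 1. Among the other members, Mmp7 held it in both of its windows. CTTTGAA, which differs in the last letter, was also searched and stood in 0 of the 12 alpha-defensin windows. It stood in 5.14% of all windows and, among the other members, in that of Mptx1. TATAAA stood in 11 of the 12 alpha-defensin windows, all but Defa28, and in 13.6% of all windows. Among the 66 pairs of alpha-defensin windows, identity in a global alignment ran from 52.0% to 100% with a median of 73.3%. Defa2 and Defa20 had the same 300 letters, and so did Defa21 and Defa22. Defa43 was 60.5% to 79.7% identical to the other 11. Because these windows are copies of each other, 11 windows with a motif are not 11 independent cases, and a match is only a match of letters.

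No member passed the test between voglibose and water. Of 36 members, 0 reached an adjusted p under 0.05 in limma (Benjamini-Hochberg, all probe sets), where the array as a whole gave 0% (0 of 22206). The adjusted p of the members ran from 0.658 to 0.994. At an unadjusted p under 0.05 there were 2 members, Defa20 and Defa32, which are 1 measurement, against 7.52% of the array (3.08% higher and 4.44% lower). Leaving out water mouse 2 gave 1 such member, which was not of this pair, since Defa20 and Defa32 pass or fail together. Leaving out water mouse 3, water mouse 4, or any 1 of voglibose mice 2, 3 and 4 gave 0. The alpha-defensins had a median difference of 0.08 (voglibose minus water), with 18 of 22 higher and 4 lower, and with 15 of 19 higher when each distinct measurement was counted once. The other members had a median difference of -0.12, with 3 of 14 higher and 11 lower. Over all probe sets the median was -0.005 and 49.1% were higher. Both medians hung on single mice: that of the alpha-defensins was 0.0017 without voglibose mouse 3, and that of the other members was -0.023 when water mouse 2 was left out and -0.032 when voglibose mouse 2 was.

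**Figure D1:**
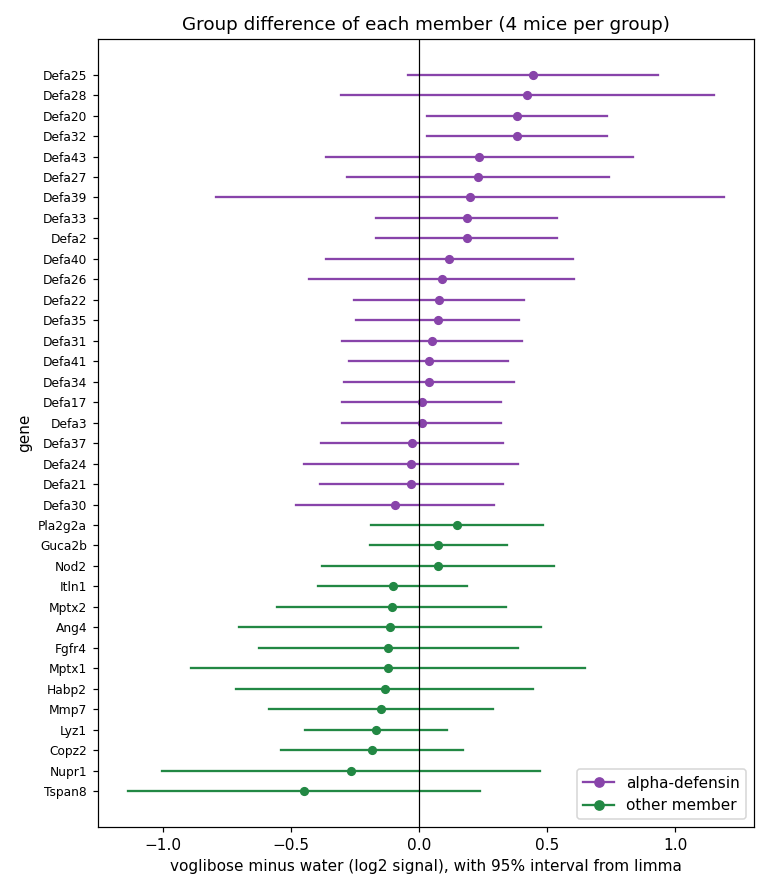
Difference between voglibose and water mice for each member on the log2 scale, with points for limma's estimate and lines for its 95% interval (4 mice per group). Defa20 and Defa32, which share their values, are the members whose interval leaves out 0, and alpha-defensins lie mostly right of 0 and the other members mostly left.

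The 4 brightest alpha-defensins lie near the top of the scale, which ended at 19.55, so a small spread there may not show a small spread of RNA. Defa3 and Defa17 gave 18.09, 18.24, 18.09 and 18.25 in water mice 1 to 4 and 17.97, 18.38, 18.24 and 18.12 in voglibose mice 1 to 4. The groups overlapped fully, with means of 18.17 ± 0.09 and 18.18 ± 0.17 (SD, n = 4) and a difference of 0.01 ± 0.14 (SE, 95% interval -0.30 to 0.32). Defa35 had 17.77, 17.92, 17.74 and 17.70 with water and 17.72, 17.96, 18.07 and 17.67 with voglibose, a difference of 0.07 ± 0.14. Defa31 had 17.11, 17.32, 17.18 and 17.38 with water and 17.11, 17.58, 17.44 and 17.06 with voglibose, a difference of 0.05 ± 0.16. In all of these, voglibose mice 2 and 3 were the highest of their group and voglibose mice 1 and 4 the lowest. The other alpha-defensins not named below (Defa21, Defa22, Defa24, Defa26, Defa30, Defa34, Defa37 and Defa41) differed by -0.095 to 0.09.

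Defa20 and Defa32, 1 measurement, had the smallest p among the alpha-defensins. Their signal was 8.72, 8.24, 8.44 and 8.50 with water and 8.59, 9.04, 8.80 and 9.00 with voglibose. Voglibose mouse 1 lay below water mouse 1, so the groups overlapped, and the difference was 0.38 ± 0.16 (SE, 95% interval 0.03 to 0.73, unadjusted p = 0.0358 and adjusted p = 0.658 in limma). Defa25 gave 9.33, 9.64, 8.50 and 9.16 with water and 9.55, 9.74, 9.72 and 9.40 with voglibose, a difference of 0.45 ± 0.22 that was 0.23 without water mouse 3. Defa28 gave 8.09, 8.46, 6.69 and 8.22 with water and 8.42, 8.52, 8.27 and 7.94 with voglibose, a difference of 0.42 ± 0.33. Without water mouse 3 the difference of Defa28 was 0.031, so this value rested on 1 mouse.

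Water mouse 3 was the lowest of the 8 mice in a set of alpha-defensins that also held Defa27, Defa40, and Defa2 with Defa33. Defa27 had 13.95, 14.24, 13.21 and 13.91 with water and 14.17, 14.34, 14.12 and 13.60 with voglibose. Defa40 had 14.36, 14.67, 13.82 and 14.81 with water and 14.37, 14.57, 14.85 and 14.34 with voglibose. For Defa2 and Defa33 the signals were 15.89, 16.08, 15.58 and 15.96 with water and 16.02, 16.24, 16.18 and 15.81 with voglibose. In water mouse 3 these genes lay below their own means by amounts from -0.39 for Defa2 to -1.39 for Defa28. In the same mouse Defa3, Defa35 and Defa37 deviated by -0.08, -0.08 and 0.04, and 20 of the 22 alpha-defensins lay below their own mean there. Defa3, Defa35 and Defa37 are brighter probe sets, and deviations of different probe sets may not be on a like scale. Water mouse 3 had the second highest Fabp6, 14.11, below the 17.50 of water mouse 2 and above 11.68 in voglibose mouse 4. It did not stand apart in Slc10a2 or the acinar genes. Any link of these markers to its low alpha-defensins was not tested in this mouse.

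The alpha-defensins of 1 mouse tended to deviate together. All 22 lay above their own mean over the 8 mice in voglibose mouse 3, and 20 did in voglibose mouse 2 and 18 in water mouse 2. In water mouse 3 and voglibose mouse 4 only 2 and 3 did. The median deviation was 0.27 in voglibose mouse 2, 0.22 in voglibose mouse 3 and 0.09 in water mouse 2. It was -0.17 in water mouse 3, -0.16 in voglibose mouse 4 and between -0.09 and -0.01 in the remaining 3 mice. High and low mice were thus found in both groups. The 22 probe sets hold 19 distinct measurements, and how far shared probes or an effect of the array moved them together was not tested. The share of all probe sets above their own mean in each mouse was not computed. The other members followed a different order, with 12 of 14 above their own mean in water mouse 2 and in voglibose mouse 3, and 3 of 14 in water mouse 4 and in voglibose mouse 2.

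**Figure D2:**
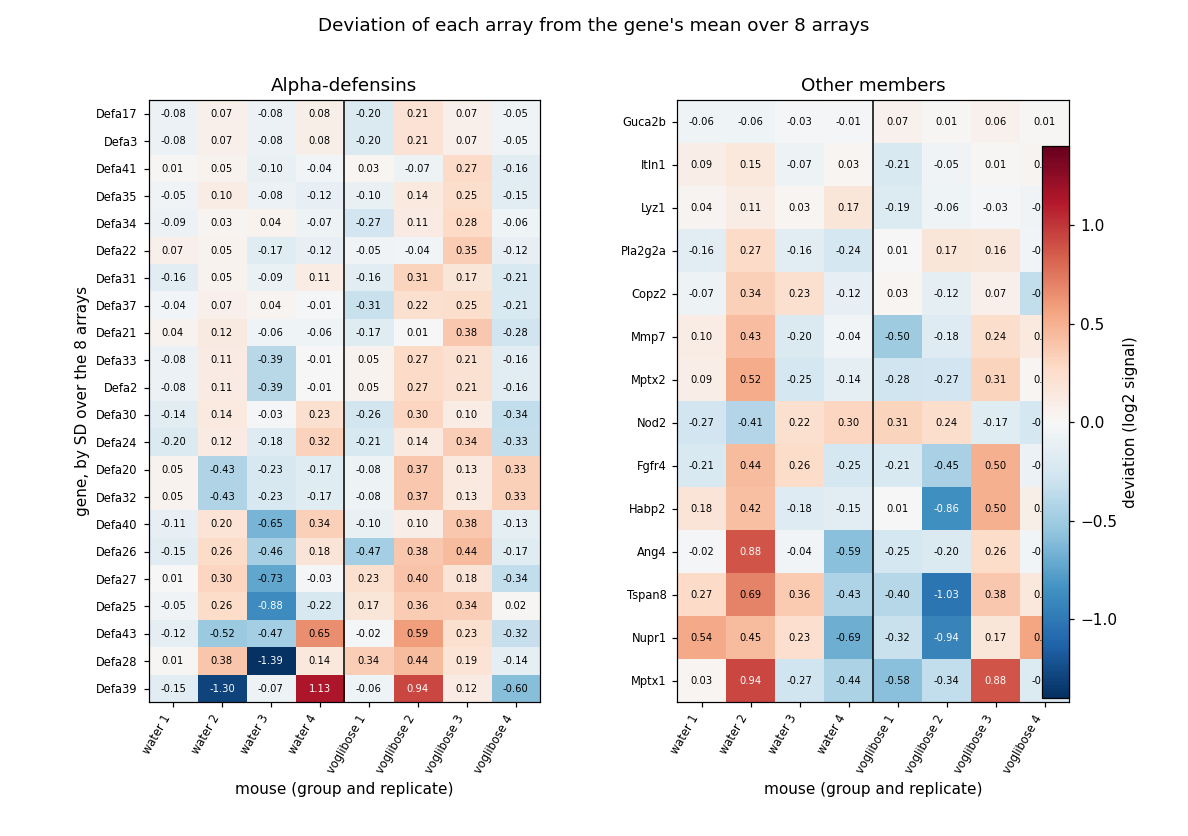
Deviation of each mouse from the mean of the 8 mice for every member (log2 signal), with the alpha-defensins at left, the other members at right and genes ordered by their SD over the 8 mice. Defa39 runs from -1.30 in water mouse 2 to 1.13 in water mouse 4, and water mouse 3 is low in Defa25, Defa27, Defa28 and Defa40.

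Defa39 varied most among the alpha-defensins, with an SD of 0.78 over the 8 mice against a median of 0.22 for the 22. Its signal was 16.61, 15.46, 16.69 and 17.89 with water and 16.70, 17.70, 16.88 and 16.16 with voglibose. Water mouse 4 and voglibose mouse 2 were the highest and water mouse 2 was the lowest, and the group difference was 0.20 ± 0.45 (SE). Defa43 gave 15.36, 14.96, 15.01 and 16.13 with water and 15.46, 16.07, 15.71 and 15.16 with voglibose, a difference of 0.24 ± 0.27. The difference of Defa43 was 0.10, 0.12 and 0.49 when water mouse 2, 3 or 4 was left out, 0.08 and 0.38 when voglibose mouse 2 or 4 was, and 0.02 with Fabp6 as a covariate. Its highest mice were the same as those of Defa39, which are also the mice with the lowest Fabp6. The group difference of Defa39 turned to -0.18 once Fabp6 was a covariate and to -0.20 without water mouse 2.

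Each probe set was therefore fitted on the group and on the signal of Fabp6, a relation added after the values had been seen. Fabp6 stands here for an ileal marker and is not a measured position along the gut. Of 36 members, Defa39 alone passed (slope -0.15 ± 0.03 per log2 unit of Fabp6, SE; adjusted p = 0.0233 in limma), where 0.977% of 22205 probe sets did. Defa43 had a slope of -0.09 ± 0.02 (adjusted p = 0.0720). The call of the Defa39 slope on Fabp6 was lost without water mouse 2, water mouse 4, voglibose mouse 2 or voglibose mouse 4 (adjusted p = 0.204, 0.361, 0.115 and 0.0571), with slopes from -0.15 to -0.13. Without water mouse 4 and voglibose mouse 2 together the slope was -0.11 (adjusted p = 0.827). With Slc10a2 in place of Fabp6 the slope of Defa39 was -0.29 ± 0.04 (adjusted p = 0.00556), where 2.28% of probe sets passed. For the other 20 alpha-defensins the median slope was -0.01, and the slopes of Defa39 and Defa43 were not tested against theirs.

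The same relation was put as a correlation over the 8 mice. Defa39 had r = -0.90 with Fabp6 (exact permutation p = 0.00429) and rho = -0.81 (exact permutation p = 0.0218), and Defa43 had r = -0.90 (exact permutation p = 0.00260) and rho = -0.90 (exact permutation p = 0.00456). Adjusted over all 22205 probe sets, none of these passed (exact permutation, adjusted p = 0.276 and 0.445 for Defa39, 0.263 and 0.330 for Defa43), and 10.2% of all probe sets had an unadjusted p under 0.05 for r. Leaving out the mice farthest from the median of Fabp6, water mouse 2 and voglibose mouse 2, gave r = -0.74 for Defa39 and -0.85 for Defa43. A group of 4 mice is too small for a correlation of its own. These are 2 of the 36 members, and the relation was computed for all 22205 probe sets. Other members had an r of like size, positive in Tspan8 (0.88, exact permutation p = 0.0031) and Ang4 (0.83, exact permutation p = 0.00868). It was 0.83 in the dim Fgfr4 (exact permutation p = 0.0125) and 0.80 in Nupr1 (exact permutation p = 0.0195). None of these passed after adjustment.

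**Figure D3:**
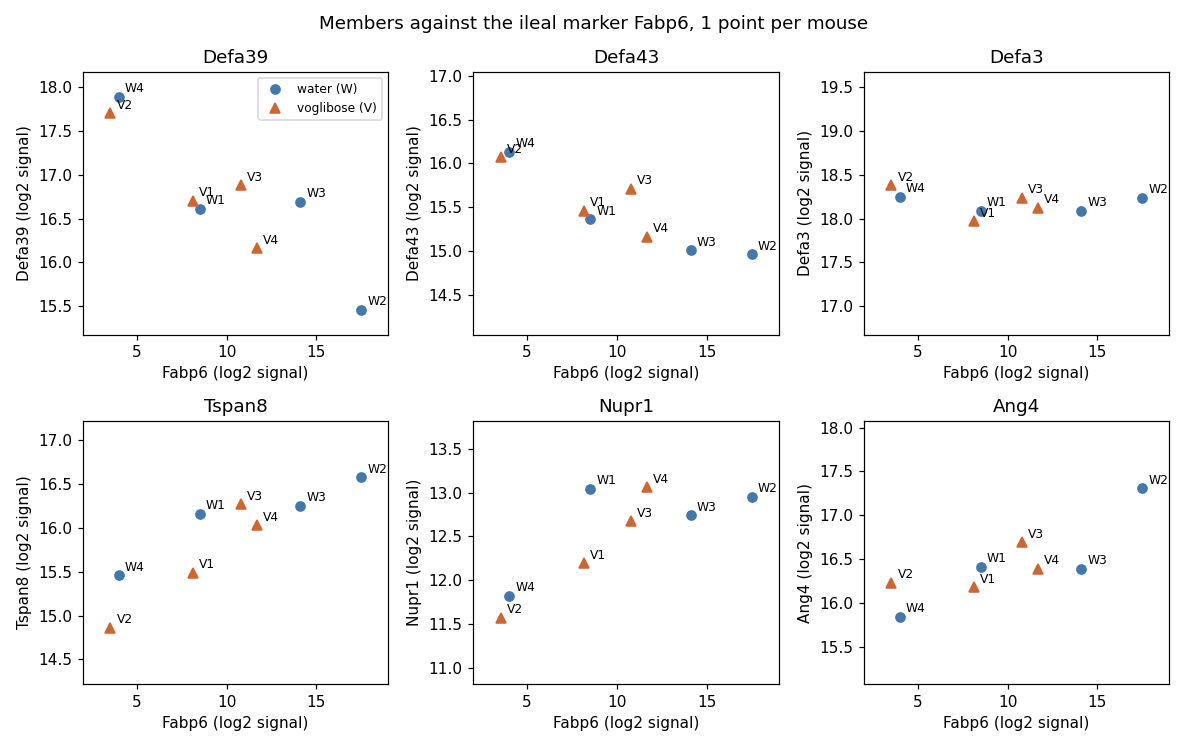
Signal of 6 members against the signal of the ileal marker Fabp6 (both log2), 1 point per mouse, with W1 to W4 for water and V1 to V4 for voglibose mice and the same height of 3 log2 units in every panel. Defa39 and Defa43 are highest in W4 and V2, which have the lowest Fabp6, Tspan8 is lowest in the same mice, and Defa3 stays between 17.97 and 18.38.

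Lyz1, the lysozyme of Paneth cell granules, was 1 of 2 members whose groups did not overlap, where 4.35% of the array did not. Its signal was 18.17, 18.24, 18.16 and 18.30 with water and 17.94, 18.07, 18.10 and 18.08 with voglibose, all 4 of the latter lower. Group means were 18.22 ± 0.07 and 18.05 ± 0.07 (SD, n = 4), and the difference of -0.17 ± 0.13 (SE) had an adjusted p of 0.795 in limma. The other was Guca2b, which encodes the gut peptide uroguanylin, with 18.58, 18.58, 18.61 and 18.62 with water and 18.70, 18.65, 18.69 and 18.65 with voglibose. All 4 voglibose mice were higher, by 0.08 ± 0.12 (adjusted p = 0.919 in limma). The SD within a group was 0.02 to 0.03 for Guca2b, below the variance that limma borrows from all probe sets, so its SE is larger than its own mice would give. Both probe sets lie near the top of the scale, which ended at 19.55.

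Mmp7, the protease that activates the alpha-defensins, gave 14.28, 14.61, 13.98 and 14.14 with water and 13.68, 14.00, 14.42 and 14.32 with voglibose. Its difference was -0.15 ± 0.20 (SE), with -0.0058 when voglibose mouse 1 was left out, -0.03 and -0.24 when water mouse 2 or 3 was, and -0.25 when voglibose mouse 3 was. The ribonuclease Ang4, an angiogenin with antimicrobial activity, gave 16.41, 17.31, 16.39 and 15.84 with water and 16.18, 16.23, 16.69 and 16.39 with voglibose. Water mouse 2 was the highest and water mouse 4 the lowest of all 8, and the difference was -0.12 ± 0.27. Pla2g2a, a secreted phospholipase that attacks bacterial membranes and is disrupted in some inbred mouse strains, was bright in every mouse here. Its signals were 17.41, 17.84, 17.41 and 17.33 with water and 17.58, 17.74, 17.73 and 17.53 with voglibose, a difference of 0.15 ± 0.15. It was 0.26 when water mouse 2 was left out and 0.09 when water mouse 4 was.

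The lectin Itln1, which binds microbial sugars, gave 18.20, 18.26, 18.04 and 18.14 with water and 17.90, 18.06, 18.12 and 18.15 with voglibose, a difference of -0.10 ± 0.13 (SE) that was -0.05 without voglibose mouse 1. The mucosal pentraxins Mptx1 and Mptx2 varied more. Mptx1 had 13.32, 14.23, 13.02 and 12.85 with water and 12.71, 12.95, 14.17 and 13.10 with voglibose. Mptx2 had 16.87, 17.30, 16.53 and 16.64 with water and 16.50, 16.51, 17.09 and 16.81 with voglibose. Both were highest in water mouse 2 and next highest in voglibose mouse 3, and differed between the groups by -0.12 ± 0.35 and -0.11 ± 0.20. Without water mouse 2 these differences were 0.17 and 0.05.

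**Figure D4:**
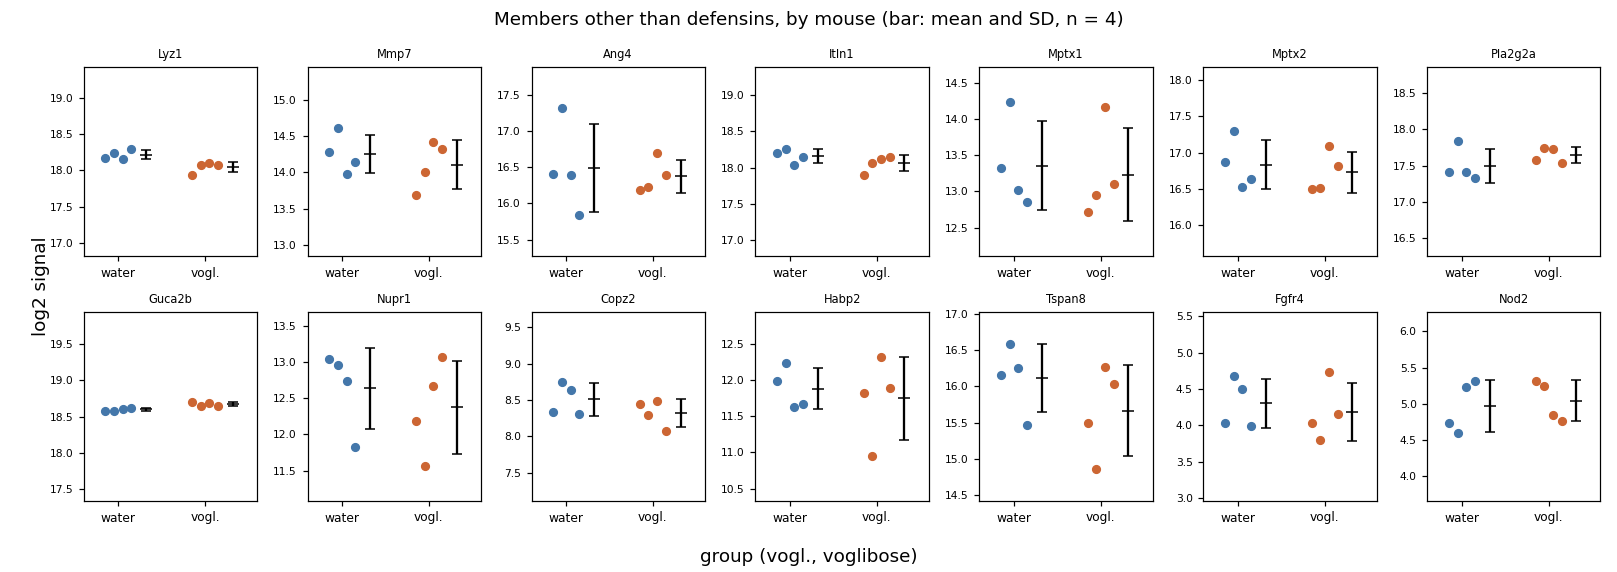
Signal of the 14 members other than defensins in each mouse (log2 signal, 2.6 log2 units per panel), with the mean and SD of 4 mice beside each group. Lyz1 and Guca2b are the panels in which the groups do not overlap, and the voglibose group of Mptx1 spreads from 12.71 to 14.17.

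Among the remaining members, Tspan8, a tetraspanin of epithelial membranes, had the largest difference. It gave 16.16, 16.58, 16.25 and 15.46 with water and 15.49, 14.86, 16.27 and 16.03 with voglibose. The lowest mice were water mouse 4, voglibose mouse 1 and voglibose mouse 2, and the difference of -0.45 ± 0.31 (SE) was -0.18 without voglibose mouse 2 and -0.29 without water mouse 2. Nupr1, a stress-induced chromatin protein, gave 13.04, 12.95, 12.74 and 11.82 with water and 12.19, 11.57, 12.67 and 13.06 with voglibose, a difference of -0.27 ± 0.34 that was 0.0025 without voglibose mouse 2. Habp2, a secreted serine protease, gave 11.99, 12.23, 11.63 and 11.66 with water and 11.82, 10.95, 12.31 and 11.89 with voglibose, a difference of -0.14 ± 0.26. The low value of voglibose mouse 2 set its sign, since the difference was 0.13 without that mouse. Copz2, a subunit of the coatomer that coats Golgi vesicles, gave 8.34, 8.75, 8.64 and 8.30 with water and 8.44, 8.29, 8.49 and 8.07 with voglibose, a difference of -0.19 ± 0.16. It was -0.10 when either water mouse 2 or voglibose mouse 4 was left out.

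The dim members were a receptor and a sensor. Fgfr4, a receptor for the ileal hormone FGF15, gave 4.03, 4.68, 4.50 and 3.99 with water and 4.03, 3.79, 4.74 and 4.16 with voglibose, a difference of -0.12 ± 0.23 (SE). Nod2, which senses bacterial muramyl dipeptide, gave 4.74, 4.60, 5.23 and 5.31 with water and 5.32, 5.25, 4.84 and 4.76 with voglibose, a difference of 0.07 ± 0.21. Both genes had groups that overlapped.

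No member outside the defensins passed the test of a slope on Fabp6 (0 of 14 after adjustment). Their slopes were positive in 11 of 14, against 10589 of 22205 probe sets, and 6 had an unadjusted p under 0.05, against 12.2% of all probe sets. Genes on marker lists of other cells sloped both ways. All 9 goblet cell genes had positive slopes, 7 of them at an unadjusted p under 0.05 and 1, Agr2, after adjustment. Agr2, Spdef, Spink4 and Tff3 are also on the Paneth lists used below. All 8 smooth muscle genes had positive slopes, 6 at an unadjusted p under 0.05 and 3 after adjustment, where 0.977% of all probe sets passed. Slopes were negative in 9 of 9 pancreatic acinar, 9 of 10 proximal, 7 of 9 macrophage, 7 of 9 B cell and 8 of 12 enterocyte genes. Of the proximal genes, 9 had an unadjusted p under 0.05 and 3 passed after adjustment. After adjustment 1 enterocyte gene passed, and 0 acinar, macrophage or B cell genes did. The acinar genes had 1 at an unadjusted p under 0.05, and their RNA was high only in voglibose mouse 2, which had the lowest Fabp6. The part of these cells in the slopes of the members was not tested. Tspan8 had a slope of 0.10 ± 0.02 (SE, adjusted p = 0.0632 in limma), Nupr1 of 0.10 ± 0.03 and Ang4 of 0.08 ± 0.02. Tspan8 and Ang4 passed with Slc10a2 in place of Fabp6 (adjusted p = 0.0235 and 0.0433 in limma). Lyz1, Itln1 and Guca2b had slopes of -0.0023, 0.0054 and -0.00081. With Fabp6 as a covariate the median difference of the other members was -0.020 and that of the alpha-defensins 0.06.

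Other genes of the Paneth cell were taken from 3 lists, and 0 passed over all probe sets. Over the array, 7.52% of probe sets had an unadjusted p under 0.05 in limma, 3.08% higher and 4.44% lower. Of 12 factors of the Paneth lineage, all measured, 10 were higher and 2 lower, with a median difference of 0.13 and 1 at an unadjusted p under 0.05. That gene was Tcf7l2, a TCF factor of Wnt signalling, with 13.69 ± 0.26 after voglibose and 13.19 ± 0.27 after water (SD, n = 4). Nfatc3, Xbp1, which drives secretory capacity, and Rnf186 differed by 0.29 ± 0.16, 0.18 ± 0.14 and 0.43 ± 0.35 (SE), those of Rnf186 and Xbp1 being 0.07 and 0.11 without water mouse 2. Of 13 measured genes of granule packaging, autophagy and microbial sensing, 7 were higher and 6 lower, with a median of 0.0025 and 3 lower at an unadjusted p under 0.05. The autophagy genes Atg16l1 and Atg5 differed by -0.48 ± 0.17 and -0.46 ± 0.18, the interferon-induced GTPase Irgm1 by -1.12 ± 0.40 and the stress sensor Ern2 by 0.26 ± 0.15. Atg16l1, whose loss is known to disturb Paneth granules, had 8.02 ± 0.24 in water and 7.54 ± 0.22 in voglibose mice, with all 4 voglibose mice lower. It was the 1 gene of these 13 whose groups did not overlap, where 4.35% of the array did not.

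Of 18 measured genes for other secreted or surface products linked to Paneth cells, 7 were higher and 11 lower, with a median difference of -0.17. At an unadjusted p under 0.05 there were 0, against 7.52% of the array. Lyz2, the lysozyme of macrophages, Spink4, shared with goblet cells, and the lectin Reg3g differed by -0.29 ± 0.15, -0.35 ± 0.20 and 0.35 ± 0.20 (SE), and Wnt3, a niche signal, by 0.31 ± 0.17 at a dim 3.43 in water mice. Spink4 was -0.19 without water mouse 2, Reg3g 0.17 without water mouse 3 and Wnt3 0.20 without voglibose mouse 4. Mean levels of the lineage list ran from 8.71 to 9.00 in water and 8.86 to 9.07 in voglibose mice, and those of this last list from 11.00 to 11.46 and from 10.82 to 11.28.

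Markers of other cells in the same samples gave 0 calls between the groups. The mean level of 9 goblet cell genes ran from 13.91 to 15.15 in water and 13.89 to 14.53 in voglibose mice, highest in water mouse 2. Part of the height of that mouse came from Retnlb, which was 7.80 there and 3.03 to 3.45 in the other mice. The mean level of 12 enterocyte genes ran from 16.75 to 17.39 and from 17.29 to 17.49, lowest in water mouse 2. For 11 genes of stem cells and crypt proliferation the levels were 9.01 to 9.04 in water and 8.70 to 9.18 in voglibose mice, lowest in voglibose mice 1 and 2. Distal ileal genes (8 measured) ran from 8.69 to 13.48 and from 8.49 to 11.13, proximal genes (10 measured) from 7.59 to 10.57 and from 8.56 to 10.49, and smooth muscle genes (8 measured) from 9.63 to 12.28 and from 10.67 to 11.61. Macrophage and dendritic cell genes (9 measured) had 8.83 to 9.06 in water and 8.39 to 8.88 in voglibose mice. Of these 9 genes, which include Lyz2, 8 were lower, 3 of them at an unadjusted p under 0.05 (Ccr2, Cd14 and Mrc1), and 2 had groups that did not overlap. Over the array, 4.44% of probe sets were lower at that p and 4.35% had groups that did not overlap. The 6 enteroendocrine genes had 8.33 to 8.82 and 8.46 to 8.76. The part of these levels in the members' values was not tested, beyond the fits on Fabp6 and Slc10a2 given above.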

How the data were processed

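RNA from the ileum of 8 mice was measured on 8 arrays. The deposited values are log2 signals per probe set. Per the submitters' processing notes, the submitters worked with RMA in Transcriptome Analysis Console, with versions and genome build not given in the sources used here. The log2 scale was read from the values, which ran from 2.09 to 19.55. No batch information was used here.

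All 22206 probe sets entered a linear model per probe set with moderated variance (limma 3.58.1, R 4.3.3, 2-sided, Benjamini-Hochberg over all probe sets, threshold 0.05), with 4 arrays per group and no block. Of these, 19572 had a gene symbol in the platform annotation, updated through gene identifiers to RefSeq where these matched. The probe set with the highest mean would stand for a gene, but each member had 1. Intervals are at 95%. Slopes on Fabp6 were fitted with the group in the model, leaving out Fabp6 itself, and exact permutations used all 40320 orders of the mice. Figures were drawn with matplotlib 3.10.9. The fits were tested on simulated data in which the planted differences and slopes were larger than those of any member. That test does not show how well changes as small as those of the members are found. The limma p-values set each difference against the spread between these mice, moderated toward that of all probe sets.

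Members and lists were chosen with earlier results of these data known. Named were all members outside the defensins, the 4 brightest alpha-defensins, the 4 with the smallest p, the 2 most variable and those with identical values, and up to 4 genes of each Paneth list by smallest p. Defa27, Defa40 and Defa43 were named after their values were seen. Alternatives were a replicate block, other normalization, centring and variance models, array weights, a filter on dim probe sets, and arrays left out.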

Additional observations from a re-analysis of the deposited data

Results flagged for a closer look

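Of 72 groups of 4 mice (36 members in each group), 2 were flagged for 1 mouse far from the rest. There the distance to the nearest other mouse took up about 0.83 or more of the group's range. Chance gives about 1 in 20 groups at this cut. Smaller gaps were not flagged, such as Defa28 at 6.69 in water mouse 3 against 8.09 to 8.46 in the other water mice. Pla2g2a in water mouse 2 was 17.84 against 17.33 to 17.41 in the other water mice (gap over range 0.843). Water mouse 2 had the highest Fabp6. Defa22 in voglibose mouse 3 was 10.37 against 9.90 to 9.98 in the other voglibose mice (gap over range 0.830), and in that mouse all 22 alpha-defensins lay above their own mean.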

How the results depend on the processing

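No member was called between the groups under any alternative, where the smallest adjusted p was 0.549 (limma), and the ordinary linear model also called 0 probe sets of the array. The median difference of the alpha-defensins kept its sign, from 0.0017 to 0.15, and that of the other members from -0.23 to -0.020. Differences of single members were small and 16 of 36 kept their sign throughout. Leaving out 1 mouse turned the sign of 20, with these ranges: Ang4 -0.33 to 0.16, Defa17 -0.058 to 0.079, Defa21 -0.16 to 0.057, Defa22 -0.028 to 0.13, Defa24 -0.15 to 0.075, Defa26 -0.052 to 0.26, Defa3 -0.058 to 0.079, Defa30 -0.21 to 0.0042, Defa31 -0.044 to 0.13, Defa34 -0.051 to 0.13, Defa37 -0.12 to 0.072, Defa39 -0.20 to 0.61, Defa40 -0.081 to 0.25, Defa41 -0.047 to 0.097, Fgfr4 -0.31 to 0.01, Habp2 -0.32 to 0.13, Mptx1 -0.43 to 0.17, Mptx2 -0.23 to 0.048, Nod2 -0.051 to 0.19, Nupr1 -0.54 to 0.0025. With Fabp6 as a covariate, an alternative added after seeing the data, the differences that turned were Ang4 at 0.077, Defa3 and Defa17 at -0.0091, Defa39 at -0.18, Fgfr4 at 0.035, Habp2 at 0.0082, Mptx1 at 0.074 and Nod2 at -0.028. Without water mouse 4 and voglibose mouse 2 together, Defa3 and Defa17 were at -0.030, Defa24 at 0.020, Defa34 at -0.010 and Habp2 at 0.057. A further quantile normalization gave 0.041 for Defa21, 0.020 for Defa24 and 0.012 for Defa37, and array weights gave 0.014 for Defa24. The cause was not tested. Members at an unadjusted p under 0.05 numbered 0 to 3. Over the array that count was 1671, 969 without voglibose mouse 1 and 1019 among probe sets above the median, where fewer are tested. Replicate numbers are shared between the groups, and whether they pair the mice is not known here. Same-numbered mice deviated with correlations of -0.32 to 0.02, which cannot settle it. With the number as a block the median difference of the alpha-defensins stayed 0.08 and 0 members were called. The slope on Fabp6 was called in 217 probe sets, in 507 with Slc10a2, in 0 without water mouse 4 and voglibose mouse 2 together and in 13 to 397 without 1 mouse. Members called numbered 1, and 3 with Slc10a2, 2 without the group term, 4 with trend and robust fitting, 0 without those 2 mice and 0 to 3 without 1 mouse. The slope of Defa39 ran from -0.17 to -0.13 without 1 mouse and was -0.11 without those 2. The number of arrays limits the precision, with a median SE of 0.16 for an alpha-defensin difference. Each member had 1 probe set, so averaging probe sets changed nothing.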
